A study of Mus musculus with 2 samples.

Results

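The 77 mitochondrial ribosomal protein genes described here are those protein-coding genes in both gene tables whose GENCODE M21 symbol begins with Mrpl or Mrps followed by a digit. They are 77 of the 21461 nuclear protein-coding genes measured, and by symbol 48 belong to the large subunit and 29 to the small subunit. GENCODE M21 lists 78 such genes, and the remaining one, Mrpl33, was not analysed here. The study sequenced total RNA from 1 group of 2 libraries, given in the labels as biological replicates 1 and 2. Both came from G1E-ER4, a male C57BL/6J immortalized line with a stated age of 0 days and a postnatal stage. The line is a mouse erythroid model whose parent lacks Gata1 and in which Gata1 was restored, as a fusion that estradiol activates, and both libraries carry that background. The cells had 10 nM 17beta-estradiol for 24 h. The series holds no untreated or other group here, so levels and the spread between libraries are given, and no effect of estradiol or of Gata1 can be measured. With 1 line and 2 libraries, the SD covers the spread between these libraries alone.

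The mitochondrial ribosome translates the few messenger RNAs encoded by mitochondrial DNA, which specify core subunits of the respiratory chain. Its ribosomal RNAs are mitochondrial transcripts, whereas all its proteins are encoded in the nucleus, made in the cytosol and imported. Part of these proteins descend from bacterial ribosomal proteins and part are specific to mitochondria. Erythroid cells depend on mitochondria for steps of heme synthesis and for iron-sulfur cluster assembly.

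Total expected counts, the reads that the quantification assigns to all listed features, were 50277914 and 47478888 in replicates 1 and 2. Nuclear protein-coding genes took 14373925 and 13901316 of them. TPM, an abundance scaled for length and to a fixed total per library, is used for levels. The single noncoding gene Gm42418 held 49.1% and 47.5% of all TPM, and nuclear protein-coding genes held 22.7% and 22.9%. TPM values of the ribosomal protein genes are therefore low in absolute terms, and they would be 4.41 and 4.37 times higher if scaled over nuclear protein-coding genes alone. In a chi-square comparison over 7244 genes, the variance between the 2 libraries was 8.04 times that of sampling alone. The libraries were therefore treated as separate. Of 8 erythroid markers, 8 were detected, among them Klf1 at 24.8 and 29.0 TPM and Gata1 at 57.6 and 65.7 TPM. Gata1 was restored in this line by design, so its detection is no sign of cell type. Of 13 markers of other blood, endothelial and stromal cells, 3 were detected, with Cpa3 the highest at 26.7 and 28.0 TPM. Pf4, of megakaryocytes, was at 19.0 and 10.5 TPM and Itga2b at 5.75 and 6.94 TPM. Myeloid markers below the threshold were unequal between libraries, with 1 and 70 counts of Mpo, 0 and 17 of Elane and 22 and 53 of Cd68, and the part of this in the members' values was not tested. The counts of Csf1r, Mcpt8, Cd3e, Cd79a and Col1a1 were 0 in both libraries, and Pecam1 had 11 and 0.

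Sequences upstream of 3 members are given first, 1 with each of 2 motif types counted below and 1 with neither. Promoter windows of 300 bases, from 250 before to 50 after the RefSeq start on GRCm38.p6, were found for 68 members and not for 9. Each stretch below is the 150 bases before the start, 5′ to 3′ on the gene's strand, and touches no gene of GENCODE M21. Capitals mark matches, on either strand, to CCGGAAG, the core bound by ETS factors such as GABPA, or to the consensus sites of NRF1 and YY1.
Mrpl52, chr14:54426759-54426908, plus strand: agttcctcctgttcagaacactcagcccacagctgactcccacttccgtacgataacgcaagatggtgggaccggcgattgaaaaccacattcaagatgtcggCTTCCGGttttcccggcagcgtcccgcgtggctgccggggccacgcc
Mrpl45, chr11:97315566-97315715, plus strand: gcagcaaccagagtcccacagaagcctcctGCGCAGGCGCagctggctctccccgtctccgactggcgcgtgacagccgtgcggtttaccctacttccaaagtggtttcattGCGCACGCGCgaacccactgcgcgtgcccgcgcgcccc
Mrps12, chr7:28741822-28741971, minus strand: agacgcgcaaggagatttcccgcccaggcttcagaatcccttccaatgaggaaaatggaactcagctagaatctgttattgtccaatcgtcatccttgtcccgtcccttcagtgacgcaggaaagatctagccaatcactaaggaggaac
Mrpl52, the highest member at 84.3 ± 2.84 TPM (SD, n = 2), holds 1 ETS core, which begins 47 bases before the start. Mrpl45, at 15.3 ± 1.63 TPM (SD, n = 2), holds 2 NRF1 sites, the farther beginning 120 bases before the start. Mrps12, at 4.70 ± 1.40 TPM (SD, n = 2), holds none of the 3 motifs in its 150 bases, although an ETS core is present elsewhere in its 300-base window.

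Over the full 300-base windows, the ETS core was present in 25 of 68 members (36.8%), in 25.4% of 6926 detected protein-coding genes and in 12.9% of all 17492 with a window. An NRF1 site was present in 13 members (19.1%), against 12.9% and 6.46%. A YY1 site was present in 6 members (8.82%), against 4.03% and 1.76%, and those 6 were Mrpl35, Mrpl37, Mrps11, Mrps18a, Mrps27 and Mrps30. At least 1 of these 3 motifs was found in 38 members (55.9%), against 37.7% of detected genes and 19.2% of all. The GC box GGGCGG was found in 34 of the 68 members, in 71.8% of detected genes and in 49.2% of all. Other motifs were sought too. The GATA site AGATAA was found in 14.7% of members, 7.51% of detected genes and 11.2% of all. The E-box CACGTG was found in 7.35%, 12.7% and 8.91%, in the same order. The shares were 38.2%, 44.6% and 42.3% for CCAAT, and 7.35%, 7.44% and 14.8% for TATAAA. A match is a description of the letters and not of binding. Levels of members with and without a motif were compared for the ETS core, NRF1 and YY1 alone, and were close. The median was 14.5 TPM for 25 members with an ETS core and 14.2 TPM for 43 without. For NRF1 the medians were 16.4 TPM in 13 members and 14.2 TPM in 55, and for YY1 they were 11.9 TPM in 6 and 14.4 TPM in 62. The RNAs of the factors themselves were present, Gabpa at 36.6 and 34.5 TPM, Nrf1 at 11.1 and 11.9 TPM and Yy1 at 33.2 and 29.8 TPM.

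Every member was detected, by a threshold of 1 TPM or more in both libraries, whereas 40.2% of nuclear protein-coding genes were. The mean level of the 77 members ran from 1.65 to 84.3 TPM with a median of 14.2 TPM, and 54 of the 77 lay above the median of detected nuclear protein-coding genes, 9.76 TPM. Together they held 1320 and 1330 TPM, which is 0.582% of all nuclear protein-coding TPM in either library. These values rest on 40434 and 39311 expected counts, with a median of 422 counts per member. Across the 77 members, log2 TPM of one library followed the other with Pearson's r = 0.967 and Spearman's rho = 0.957, and TPM fell with gene length only loosely, with rho = -0.262. These correlations are over genes of the same 2 libraries and describe them only.

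**Figure D1:**
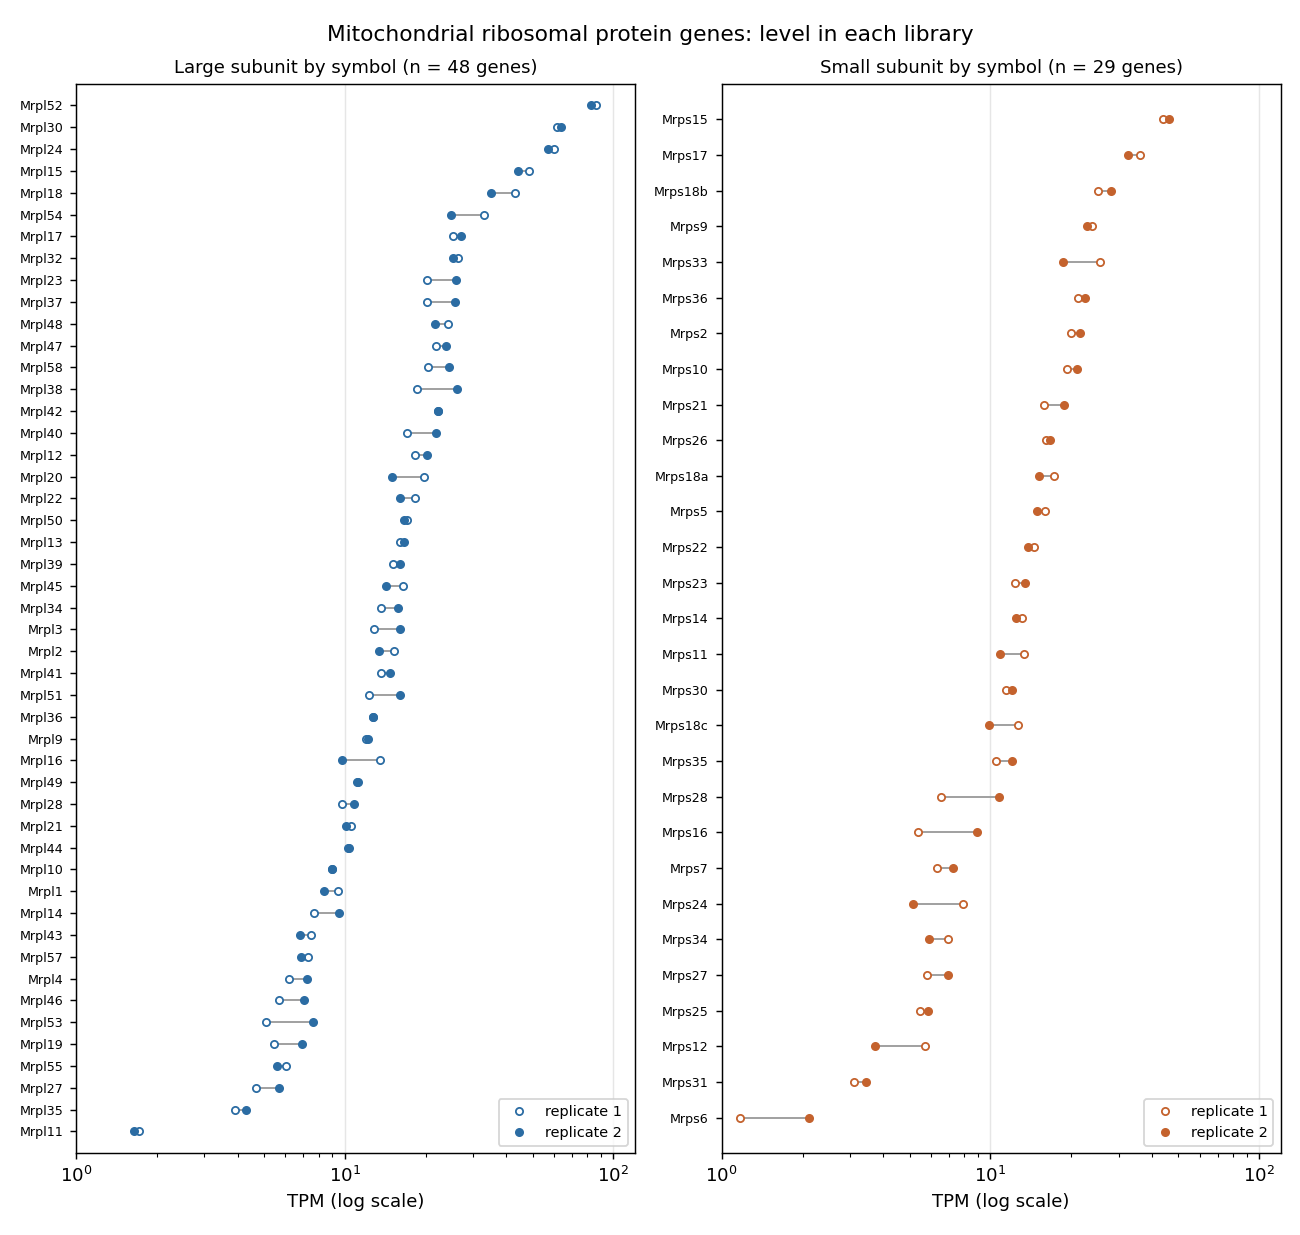
TPM of each member (horizontal log axis) in replicate 1 (open points) and replicate 2 (filled points), with large subunit members on the left and small subunit members on the right, ordered by mean. All 77 members lie above 1 TPM, Mrpl52 is highest and Mrps6 lowest, and the wider gaps are at the low end of the small subunit.

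The large and small subunits were close in level. The median over large subunit members was 14.4 and 15.4 TPM in replicates 1 and 2, and over small subunit members 13.1 and 12.4 TPM. The ratio of the medians of mean TPM was 1.15, with 1.10 in replicate 1 and 1.25 in replicate 2. The ranges overlapped almost fully, from 1.68 to 84.3 TPM for the large subunit and from 1.65 to 44.9 TPM for the small. Symbols do not always match the subunit in the particle, since structures place Mrps30 and Mrps18a in the large subunit and Mrps36 in neither. Divided by structure, the medians were 14.6 TPM for 50 large subunit members and 12.4 TPM for 26 small subunit members. Members with a bacterial homologue (44) had a median of 13.5 TPM and those specific to mitochondria (31) had 14.2 TPM, so descent did not separate them by level.

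Of the large subunit, Mrpl52 stood at 86.3 and 82.3 TPM, the highest of all members in either library. It is a protein of the central protuberance, the part of the large subunit that faces the head of the small one. Mrpl30, homologue of a conserved bacterial large subunit protein, was measured at 61.4 and 64.0 TPM. Mrpl24, which sits by the opening of the exit tunnel, was measured at 60.2 and 57.3 TPM. Mrpl30 and Mrpl24 did not overlap between libraries, but the TPM bounds deposited for them did, from 56.1 to 64.8 and from 55.6 to 62.7 in replicate 1. Mrpl15, another conserved protein, followed at 48.6 and 44.3 TPM. Mrpl18, of the central protuberance, gave 43.2 and 35.1 TPM. The next 3 members lay within 1 band, with Mrpl54 at 32.9 and 24.9 TPM, Mrpl17 at 25.4 and 27.1 TPM, and Mrpl32 at 26.3 and 25.4 TPM. Their order is not resolved, because their values interleave between libraries. Mrpl32 is known as a substrate of the m-AAA protease, whose cleavage of it is needed before the subunit can assemble.

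At the other end, Mrpl11 was lowest of the large subunit at 1.72 and 1.64 TPM, from 157 and 142 counts over a length of 2882 bases in replicate 1. It belongs to the stalk base where translation factors bind. Mrpl35 was next at 3.90 and 4.30 TPM, and Mrpl27, which reaches towards the peptidyl transferase centre, stood at 4.66 and 5.70 TPM. Mrpl55 was measured at 6.03 and 5.58 TPM, Mrpl19 at 5.47 and 6.94 TPM and Mrpl53 at 5.10 and 7.60 TPM. Mrpl11 was separate from these 5 in both libraries, while Mrpl27, Mrpl55, Mrpl19 and Mrpl53 overlapped. Mrpl35 had a length of 3715 bases in replicate 1 and 463 and 484 counts, so a low level per length went with a count above that of the median member.

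Of the small subunit, Mrps15 was highest at 43.9 and 46.0 TPM, and Mrps17 followed at 36.1 and 32.6 TPM. Mrps15 lies in the platform and Mrps17 in the lower body. Mrps18b stood at 25.1 and 28.0 TPM, and Mrps9 of the head at 23.9 and 22.9 TPM. Mrps33 was measured at 25.6 and 18.7 TPM, Mrps36 at 21.2 and 22.4 TPM, Mrps2 at 19.9 and 21.6 TPM and Mrps10 at 19.2 and 21 TPM. From Mrps33 to Mrps10 the values overlapped, so only Mrps15 and Mrps17 stood apart at the top in both libraries. Mrps36 is better known as a component that holds the 2-oxoglutarate dehydrogenase complex together than as a ribosomal protein.

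The lowest small subunit member and the lowest of all was Mrps6, a platform protein, at 1.17 and 2.12 TPM from 28 and 48 counts. It is overlapped on the same strand by Slc5a3, Gm16310 and Gm49711 in M21. Its counts were whole numbers with a deposited posterior SD of 0 in both libraries, so none was divided with another listed gene. Whether RNA of the overlapping genes was counted for Mrps6 was not tested. Mrps31 of the head stood at 3.10 and 3.45 TPM. Mrps12, homologue of the bacterial decoding-site protein in which streptomycin resistance mutations arise, stood at 5.69 and 3.71 TPM. Mrps25 was measured at 5.45 and 5.87 TPM, Mrps27 at 5.81 and 6.93 TPM and Mrps34 at 6.95 and 5.89 TPM. Mrps6 did not overlap Mrps31 in either library, while Mrps12 overlapped Mrps25, and Mrps27 overlapped both Mrps25 and Mrps34.

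By position in the particle, members of the exit tunnel and its rim had a median of 22.9 TPM (7 members, 6.72 to 58.7 TPM). Those of the central protuberance had a median of 22.4 TPM (8 members, 5.80 to 84.3 TPM). The stalks and factor-binding region had 8.95 TPM (4 members, 1.68 to 19.2 TPM), the peptidyl transferase region 13.0 TPM (4 members), and the small subunit's head, platform and lower body 12, 14.7 and 7.14 TPM (8, 6 and 5 members). Every pair of these regions overlapped in range, and no region was set apart by its level. The classes are few members each and come from general knowledge of the structure.

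Several members have a known role of their own. Mrpl12, a stalk protein that is also reported to bind the mitochondrial RNA polymerase, stood at 18.3 and 20.2 TPM. Mrpl58, a peptidyl-tRNA hydrolase that rescues stalled ribosomes and is built into the particle, was measured at 20.5 and 24.4 TPM. Mrpl45, by the tunnel exit where the ribosome meets the inner membrane, stood at 16.5 and 14.2 TPM. Mrps30, of the large subunit by structure, was measured at 11.4 and 12 TPM. The 3 Mrps18 genes encode related proteins that occupy different places, and they differed in level. Mrps18b was highest at 25.1 and 28.0 TPM, Mrps18a was at 17.3 and 15.2 TPM, and Mrps18c was lowest at 12.7 and 9.89 TPM, in the same order in both libraries.

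Mitoribosomal proteins whose symbols fall outside the Mrpl and Mrps series were measured alongside. Aurkaip1, of the small subunit, stood at 32.4 and 35.4 TPM. Dap3, the GTP-binding small subunit protein, stood at 29.3 and 27.7 TPM, and Ptcd3, of the small subunit, at 22.2 and 22.1 TPM. Chchd1 was at 4.60 and 4.95 TPM and Gadd45gip1, of the large subunit, at 3.5 and 3.61 TPM. Their median was 22.1 TPM, and all 5 lay inside the range of the members.

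Related gene lists put these levels in context. Cytosolic ribosomal protein genes were taken by symbol, as protein-coding genes named Rpl or Rps and a digit, without Rps6k kinases. This leaves out genes with other names, such as Fau, and takes in Rpl9-ps1, Rpl10l and Rpl3l, its lowest genes. These 88 genes had a median of 204 TPM, 14.4 times that of the mitochondrial members (15.0 in replicate 1 and 14.1 in replicate 2), and 82 of them were detected. The 73 nuclear genes for respiratory chain and ATP synthase subunits had a median of 36.1 TPM, and 73 were detected. Mitoribosome assembly factors had a median of 5.20 TPM, and 23 of 26 were detected. Among them Fastkd2, which binds the large ribosomal RNA, was at 33.1 and 36.7 TPM, Mterf3 at 19.8 and 22.8 TPM and Noa1 at 12.9 and 15.4 TPM. At the low end were Ybey, at 0.990 and 0.970 TPM, and Gtpbp10, at 0.0600 and 0.10 TPM from 6 and 9 counts. Translation factors had a median of 11.2 TPM with 13 of 13 detected, led by the elongation factors Tufm at 22.8 and 28.0 TPM and Gfm1 at 24.2 and 22.4 TPM and by the insertase Oxa1l at 19.6 in both. The release factor Mtrf1 was at 3.88 and 3.54 TPM and Guf1 at 2.85 and 3.54 TPM. The median of the members thus lay above those of the assembly and translation factors and below that of the respiratory chain genes, with overlapping ranges throughout.

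**Figure D2:**
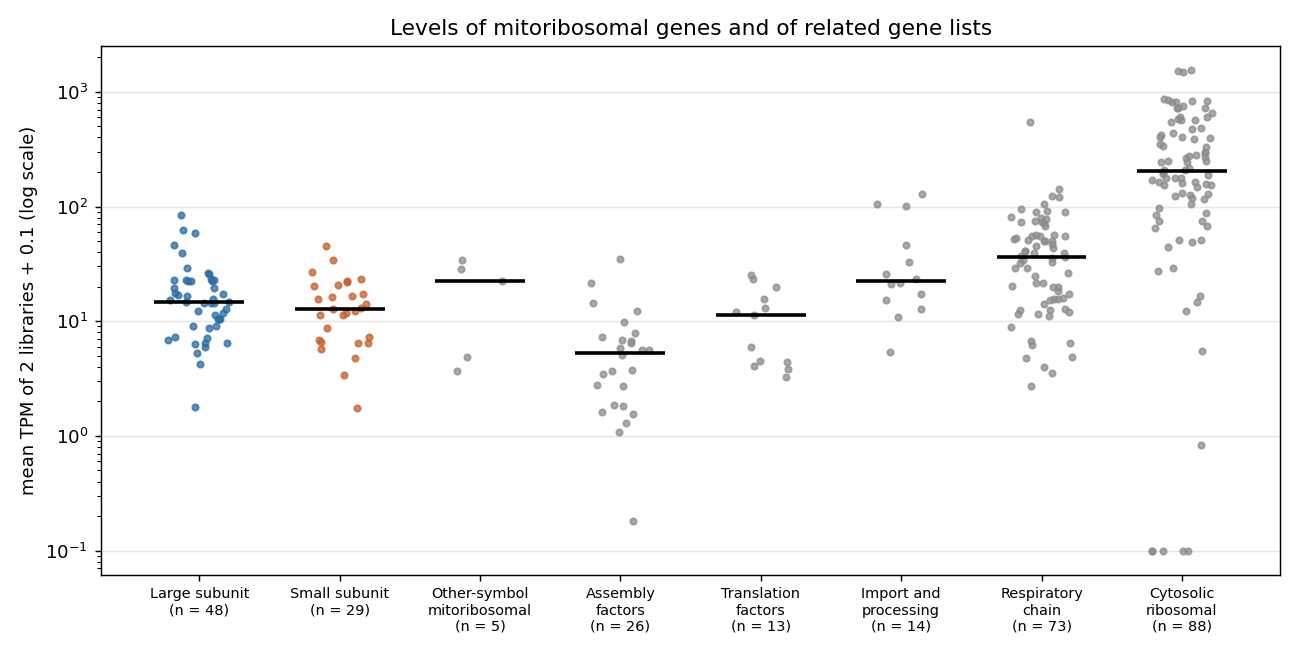
Mean TPM of the 2 libraries plus 0.1 (vertical log axis) for each gene of the large and small mitoribosomal subunits and of 6 related lists, with points for genes and bars for medians. Cytosolic ribosomal protein genes have the highest median, 204 TPM, assembly factors the lowest, 5.20 TPM, and both mitoribosomal subunits lie between.

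Genes for mitochondrial transcription and RNA stability had a median of 13.3 TPM with 12 of 12 detected. Lrpprc, which stabilises mitochondrial messenger RNAs, was highest at 29.2 and 28.1 TPM, followed by Ssbp1 at 21.4 and 20.3 TPM and Pnpt1 at 18.8 and 19.1 TPM. Twnk, the mitochondrial DNA helicase, stood at 4.5 and 4.38 TPM and Tefm at 3.71 and 3.47 TPM. Import and presequence processing genes had a median of 22.2 TPM with 14 of 14 detected, led by the chaperones Hspd1 at 128 and 126 TPM and Hspa9 at 102 and 106 TPM and by the channel subunit Timm23 at 92.5 and 108 TPM. Afg3l2, a subunit of the m-AAA protease that cleaves Mrpl32, was at 10.3 and 11.4 TPM and the peptidase Mipep at 5.12 and 5.44 TPM. Of regulators of nuclear mitochondrial genes, 9 of 10 were detected, with a median of 17.4 TPM. Myc was highest at 106 and 99.5 TPM, Esrra was at 2.29 and 2.33 TPM, and the coactivator gene Ppargc1a had 0 and 1 counts. The ribosomal RNAs of the particle, mt-Rnr1 and mt-Rnr2, were at 90040 ± 3737 and 71050 ± 2918 TPM (SD, n = 2). These values do not measure the number of particles. In bulk RNA such as this, fewer cells and less RNA per cell cannot be told apart.

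The members were about as close between libraries as other detected genes. Their median log2 ratio of TPM, replicate 2 over replicate 1 with a pseudocount of 0.1, was 0.05, and that of 8808 nuclear protein-coding genes with a mean of 1 TPM or more was 0.03. The SD of the ratio was 0.28 for the members, 0.37 for those genes and 0.31 for the 8620 detected genes. A distance of 1.5-fold or more separated the libraries for 5 of the 77 members, against 7.98% of the 8808 genes (4.42% with the higher value in replicate 2, 3.56% in replicate 1), and against 9.76% of the 6714 genes within the members' range of counts. The ratio of counts lay beyond its 95% counting interval, an exact binomial one that covers counting error only, for 28 members, against 45.6% of the 8808 genes. This interval narrows as the count rises, and no share of genes in the members' range of counts was computed for it.

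The 5 members that differed by 1.5-fold were all of the small subunit, with 0 of 48 from the large. Mrps6 had 28 and 48 counts and was 1.75-fold higher in replicate 2. Mrps16, of the lower body, was at 5.36 and 8.93 TPM from 79 and 124 counts, 1.65-fold higher in replicate 2. Mrps28 was at 6.53 and 10.8 TPM from 143 and 223 counts, 1.64-fold higher in replicate 2. The other 2 were higher in replicate 1. Mrps24, of the head, was at 7.94 and 5.15 TPM from 178 and 117 counts, 1.53-fold higher in replicate 1. Mrps12 was at 5.69 and 3.71 TPM from 110 and 62 counts, 1.52-fold higher in replicate 1. All 5 were among the 17 members with a mean count under 250, of which 9 were small subunit genes, and none of the other members was so far apart. The SD of the log2 ratio was 0.44 for those 17 members, 0.24 for 27 members of 250 to 500 counts and 0.18 for 33 members of 500 counts or more. The part of low counts in the difference between subunits was not tested. With a pseudocount of 1, 2 of the 5, Mrps16 and Mrps28, remained 1.5-fold apart.

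**Figure D3:**
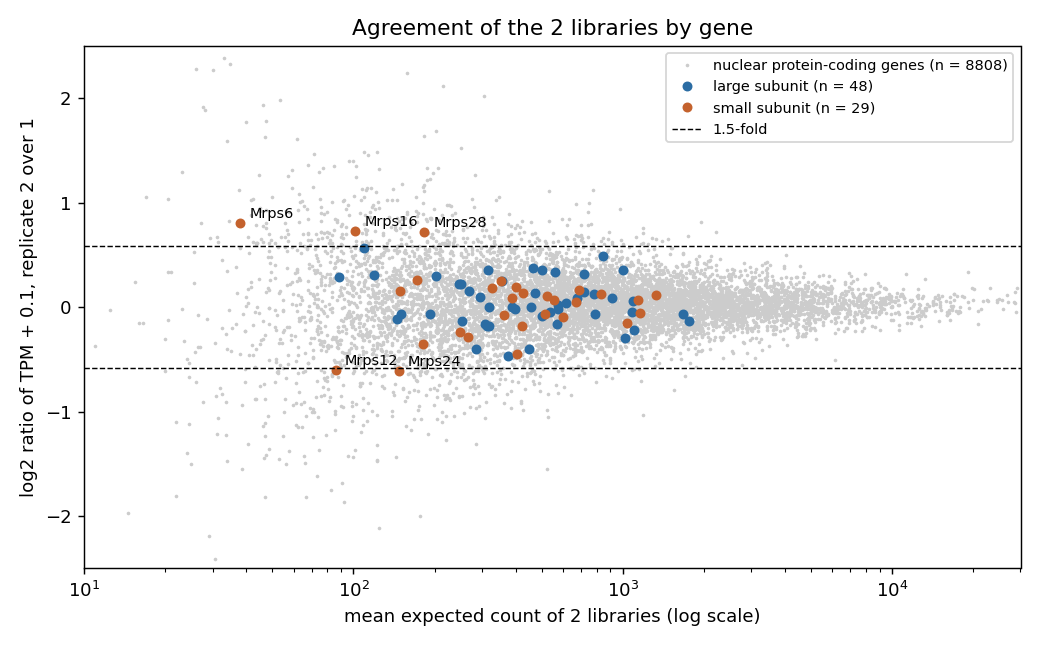
Log2 ratio of TPM + 0.1, replicate 2 over replicate 1, against the mean expected count (horizontal log axis) for nuclear protein-coding genes (grey) and for large (blue) and small (orange) subunit members, with dashed lines at 1.5-fold. The 5 named members past the lines have low counts, and the spread of members narrows as the count rises.

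Mrpl23, of the exit tunnel rim (chr7:142532686-142540747, plus strand, GRCm38), was chosen for description after its values were seen, because its count is shared with a copy. Mrpl23-ps1 is a processed pseudogene at chr2:74591330-74591909, minus strand, and matches 540 bases of the Mrpl23-201 transcript with 100% identity. Mrpl23-201 is a coding transcript that was itself assigned 0 and 26.1 counts, most of the gene's counts going to the processed transcript Mrpl23-202. The first 60 coding bases are shown for both, since no read within them can be placed by sequence.
Mrpl23-201: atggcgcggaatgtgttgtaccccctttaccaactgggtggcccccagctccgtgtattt
Mrpl23-ps1, chr2:74591833-74591892, minus strand: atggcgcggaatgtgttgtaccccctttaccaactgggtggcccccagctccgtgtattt
Mrpl23 was assigned 281.41 counts in replicate 1 and 351.72 in replicate 2, and the pseudogene 357.59 and 264.28. The sums, 639 and 616 counts, were whole numbers, and the share given to Mrpl23 moved from 44.0% to 57.1%. In TPM, Mrpl23 was at 20.3 and 26.0 and the pseudogene at 23.5 and 18.4. The log2 ratio was 0.36 for Mrpl23 and -0.35 for the pseudogene, and 0.02 for their sum of 43.8 and 44.4 TPM. The deposited posterior SD of the Mrpl23 count was 34.74 and 34.21, against 16.8 and 18.8 for the square root of the count. How much of the sum comes from either locus is uncertain, and the sum of 44.1 ± 0.424 TPM (SD, n = 2) would place sixth among the members if all of it came from Mrpl23.

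**Figure D4:**
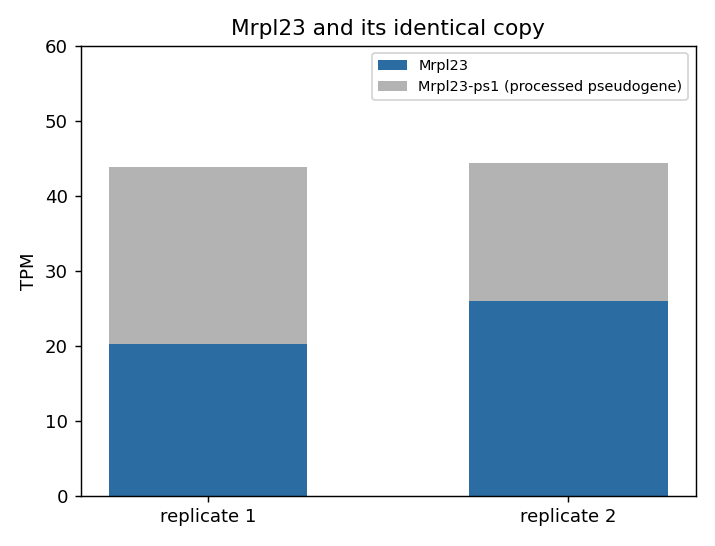
TPM assigned to Mrpl23 (blue) and to its identical processed pseudogene Mrpl23-ps1 (grey), stacked, in each replicate. The total is nearly the same, 43.8 and 44.4 TPM, while the Mrpl23 part is 20.3 and 26.0 TPM.

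For other members, sharing of counts could be seen only with copies that were themselves quantified. A copy elsewhere in the genome with at least 90% identity, over at least 200 bases and 50% of a transcript, was found among M21 transcripts for 20 members, and 16 of these had such a copy in the tables. Beside Mrpl23-ps1, 2 copies had a mean count of 10 or more, and both resembled Mrpl48. Mrpl48-ps had 32.43 and 33.84 counts, against 295.57 and 321.16 for Mrpl48, and Gm37158 had 13 and 28. The posterior SD of the count was 0 in both libraries for 63 of the 77 members and over 1 for 7. It cannot show reads from a copy that was not quantified, and the part of such copies was not tested.

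Of the 77 members, 19 had 1 transcript in the tables and 58 had several. In those 58 the leading transcript, the one with the largest mean share of the gene's TPM, held a median of 70.2%. The leading transcript was annotated protein-coding in M21 for 62 members and not for 15, or 19.5%, against 10.9% of detected nuclear protein-coding genes. Of the 15, 8 were retained introns, 4 nonsense-mediated decay transcripts and 3 processed transcripts without a reading frame. Ranked by expected counts, where length is not divided out, a coding transcript led in 69 members. The leading transcript was not the same in both libraries for 14 of the 58, or 24.1%, against 22.5% of 6477 detected genes with several transcripts.

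In Mrps26 the retained-intron transcript Mrps26-201 held 88.8% and 90.6% of its TPM and 64.2% and 68.3% of its counts. In Mrpl47, of the exit tunnel rim, the processed transcript Mrpl47-202 held 70.0% and 82.0% of TPM but 23.2% and 35.9% of counts. For Mrpl32 the only transcript in the tables, Mrpl32-201, is annotated in M21 as subject to nonsense-mediated decay. In Mrpl23 the processed transcript Mrpl23-202 held 94.9% and 85.8% of TPM and 92.9% and 81.0% of counts, and the coding Mrpl23-201 had 0 and 26.1 counts. These 4 were chosen after their values were seen.

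Members with the lowest leading shares were divided among many transcripts. Mrpl24-202, a coding transcript, led at 19.3% and 25.7%, and the leader was Mrpl24-204 in replicate 1. Mrps5-202, a retained intron, held 25.3% and 25.8%. Mrpl58-207, also a retained intron, held 26.3% and 32.8%. Mrps11-206 moved from 19.2% to 47.1%, and Mrpl15-201 from 42.3% to 29.1%. Mrpl20-201 held 31.2% and 41.6%, and Mrps17-201 held 46.5% and 28.7%. The widest swing among all members was that of Mrpl21-201, from 12.9% to 71.8%. The gene level of Mrpl21 hardly moved meanwhile, at 10.6 and 10.1 TPM.

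**Figure D5:**
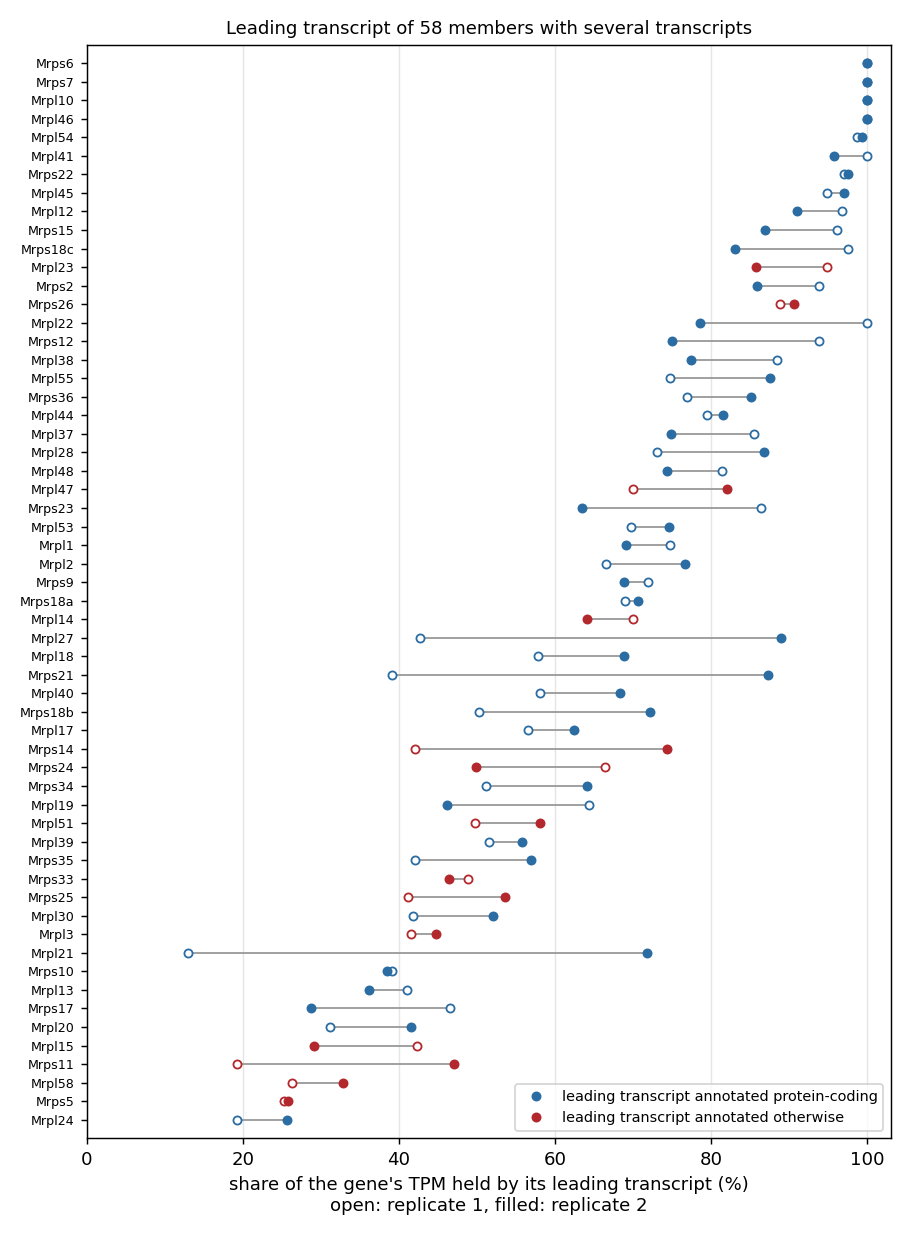
Share of the gene's TPM held by the leading transcript (horizontal axis, percent) for the 58 members with several transcripts, in replicate 1 (open) and replicate 2 (filled), in blue where that transcript is annotated protein-coding and in red where it is not. Gaps between libraries are wide for members such as Mrpl21, Mrps21 and Mrpl27, and shares run from under 20 to 100%.

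The division among transcripts also touches gene-level values, because TPM divides by a length that follows the transcripts called. For Mrps5 the scaled count ratio, replicate 2 over replicate 1, was 1.27 while the TPM ratio was 0.938. For Mrpl47 these were 0.803 and 1.09. A direction between libraries for these 2 members therefore depends on the unit. They were chosen after their values were seen.

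The members lie on 17 chromosomes, with 11 on chromosome 11 and 8 on chromosome 17. A protein-coding gene on the opposite strand started within 1000 bases, head to head and with an overlap of at most 50 bases, for 19 of the 77 members (24.7%). The same held for 7.01% of all nuclear protein-coding genes and 13.6% of the detected ones. Of the 19 neighbours 16 were detected, and 6 were higher than the member. Fau, which encodes a ubiquitin-like protein fused to a cytosolic ribosomal protein, starts 59 bases from Mrpl49 and was at 613 and 542 TPM, against 11.2 and 11.1 TPM for Mrpl49. Ncapd2, a condensin subunit, starts 100 bases from Mrpl51 and was at 99.1 and 105 TPM, against 12.3 and 16.1 TPM for Mrpl51. Psma2, a proteasome subunit, starts 75 bases from Mrpl32 and was at 46.6 and 49.0 TPM. In these 3 pairs the neighbour was the higher gene, whereas 13 of the 19 neighbours were lower than the member. Some of those were far lower, such as Klc4 at 0.480 and 0.230 TPM against 15.2 and 13.4 TPM for Mrpl2. Cyb5rl was at 1.03 and 0.620 TPM against 20.2 and 25.8 TPM for Mrpl37. Lrrc46 was at 0.720 and 0.0500 TPM against 8.97 and 8.98 TPM for Mrpl10, and Mitd1 at 16.3 in both against 61.4 and 64.0 TPM for Mrpl30. Only some of the other pairs were near, such as Ppp1r10 at 21.1 and 21.8 TPM against 25.1 and 28.0 TPM for Mrps18b.

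Some of these neighbours are themselves mitochondrial. Mrps12 shares its start region with Sars2, the mitochondrial seryl-tRNA synthetase, 172 bases away and at 2.83 and 2.75 TPM. Mrpl36 shares one with Ndufs6, a complex I subunit, whose start overlaps it by 29 bases, and the levels were near, at 12.8 and 12.7 TPM for Mrpl36 and 11.5 in both for Ndufs6. Mrps27 lies 81 bases from Ptcd2, which stood at 7.60 and 9.52 TPM against 5.81 and 6.93 TPM for Mrps27. Mrpl46 and Mrps11 on chromosome 7 are the only pair of members head to head, and because they overlap by 413 bases, more than the 50 allowed, they were not counted among the 19. Mrpl46 was at 5.69 and 7.04 TPM and Mrps11 at 13.3 and 10.9 TPM. The pairs in these 2 paragraphs were chosen after their values were seen. A gene on the opposite strand overlapped 35 members in M21 and one on the same strand 12, and 36 overlapped neither. The same shares of all genes were not computed, so these counts do not set the members apart. Whether the counting used strand is not given in the sources used here, so reads of such overlaps may be assigned to either gene.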

How the data were processed

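Total RNA of 2 libraries of 1 group was measured, with a gene and a transcript table for each. The build was mm10 per the labels, with GENCODE M4 gene models per the deposited documentation. Columns carry RSEM's names. For its version, and for aligner, trimming and strand setting, nothing was given in the sources used here. The authors deposited expected counts (estimated reads per gene, not normalized), TPM (scaled for length to a fixed total, spike-ins included), FPKM (scaled for length and depth), percent of a gene's TPM per transcript, and signal bounds of the TPM interval, whose level is not given. The posterior SD of the count and posterior mean TPM were deposited as well.

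Identifiers without version were matched to GENCODE M21, which named 42462 of 43346 Ensembl genes. M4 gene models were quantified, so M21 types and positions may differ from those counted. With 1 group no test between conditions was possible: values are given per library or as mean ± SD, and lists by counts and medians beside all genes. Scaling alternatives used edgeR 4.0.16 (TMM) and DESeq2 1.42.0 size factors on rounded expected counts in R 4.3.3, with no test. Copies were sought with BLAST+ 2.17.0 among M21 transcripts, with the 200-base and 50% minimum set after shorter repeat matches were seen. Promoter windows are RefSeq's, on GRCm38.p6. A scaled count ratio and the counting interval were tried on simulated counts that held counting error only, less than the spread of these libraries. The ratio of TPM was not tried in this way. The members and lists were chosen with earlier results of these data known, and the motifs, the copy search, the respiratory chain list and the counting intervals were added after the files were seen. Named members are the 8 highest and 6 lowest of each subunit, those 1.5-fold apart, those with a known role, the 8 of lowest leading share among 21 whose leading transcript is not coding or not the same, and the 3 highest and 2 lowest of each related list, and others are marked where named. Mrpl33 and Fastkd4 were not analysed here.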

Additional observations from a re-analysis of the deposited data

How the results depend on the processing

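Of 44 alternative values, 35 stayed within the spread between libraries or within 1.5 times the count, 9 moved and 0 turned direction. Some of the 35 could not have moved, because all 77 members were at 1 TPM or more in both libraries. This holds for detection at 0.5 TPM, over nuclear protein-coding genes alone or in 1 library, and for filters at 1 TPM. Medians and ratios with 1 library left out were judged against the spread of the same 2 libraries. The tally is therefore no measure of robustness. In FPKM the medians were 9.60 for the large and 8.38 for the small subunit, because FPKM is another unit, and their ratio stayed at 1.14. The median log2 ratio between libraries was 0.00 with TMM-scaled counts and 0.00 with DESeq2-scaled counts. With a pseudocount of 1, 2 members were 1.5-fold or more apart in place of 5. With TMM-scaled or DESeq2-scaled counts 6 were, of which 4 were among the 5 by TPM, and Mrpl27 and Mrps11 were added while Mrps24 was not. With 1 library left out, the large subunit median ranged from 14.4 to 15.4 TPM, the ratio of cytosolic to mitochondrial medians from 14.1 to 15.0, and the median leading share from 69.3% to 73.2%, the last chosen after the data were seen. By share of expected counts the leading share was 73.2%. At a threshold of 5 TPM 71 members were detected, and at 0.5 TPM 77. With start sites within 500 and 2000 bases, 18 and 21 members had a divergent neighbour (23.4% and 27.3%). At 500 bases the share was 6.39% of all nuclear protein-coding genes and 12.7% of detected ones. At 2000 bases it was 7.96% and 14.7%. No paired analysis was possible because there is a single group. Mrps6 rests on 28 and 48 counts.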

Other observations

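Of the 13 protein-coding genes of mitochondrial DNA, whose products the mitochondrial ribosome makes, 13 were detected, at mean levels from 14.1 to 14478 TPM. Most were close between libraries, such as mt-Cytb at 6385 and 6417 TPM, mt-Nd5 at 2264 and 2321 TPM and mt-Co1 at 5445 and 5515 TPM. Values of mt-Nd4l, at 2503 and 581 TPM, mt-Atp6, at 1559 and 4948 TPM, and mt-Co2, at 8.75 and 19.5 TPM, were 1.5-fold or more apart, and no other of the 13 was. Their counts were not whole numbers, with 14711.97 and 3177.51 for mt-Nd4l, 28886.84 and 86566.26 for mt-Atp6 and 162.99 and 343.31 for mt-Co2. Reads may thus have been divided with other listed features, so these levels and differences are uncertain. Counts of mt-Co1, mt-Nd2, mt-Co3 and mt-Nd4, which were close, were not whole either. Those of mt-Nd1, mt-Atp8, mt-Nd6 and mt-Cytb were whole in both libraries. The part of such division was not tested.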
